A study of Nothobranchius furzeri with 10 samples.

Results

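The 100 most abundant transcripts of muscle from the turquoise killifish Nothobranchius furzeri were followed through 10 RNA-seq libraries. They were chosen by abundance alone: counts were turned into CPM (the count per 1000000 counts of the same library, from its own column total), averaged over the 10 libraries, and the 100 genes with the highest mean were taken from the 26739 genes of the table. Their high level is therefore the rule and not a result. CPM is the share of a library on another scale, so a large summed share follows from the rule as well. The differences between libraries and the way members moved relative to each other were no part of the rule. A gene high in only some libraries could still enter through them.

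All libraries came from muscle of male fish of the inbred strain GRZ, a short-lived laboratory line, at 10 weeks of age. Each carries the perturbation label swim-tunnel, a device in which fish swim against a current, and the labels name no unexercised fish, so the effect of exercise could not be estimated. The libraries differ in their labels only by a number in the title. They fall into a block of 5 numbered JG80 to JG84 and a block of 5 numbered JG74 to JG78. The labels say neither what these numbers stand for nor that separate fish gave separate libraries, so a batch, a day, a group of fish and any other difference between the blocks cannot be told apart. The split was also known beforehand to separate the expression profiles. The p-values below therefore measure only the distance between these 2 sets of libraries against the spread within them.

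Skeletal muscle is known for devoting a large part of its messenger RNA to a small set of genes. Textbook members of that set are the proteins of the contractile filaments, the calcium-binding and calcium-pumping proteins that switch contraction on and off, and the enzymes of glycolysis and the creatine kinase reaction that supply it with ATP. Because reads are a fixed pool shared among transcripts, the share of 1 very abundant transcript also bears on the shares of all others. Genes are known here by the identifier in the count table alone, and 0 of the identifiers could be matched to the table of gene names that was used. The members are therefore described by identifier, abundance and length, no role is assigned to any of them, and the tissue label could not be checked against named markers.

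The libraries held 28937483, 26852341, 34780739, 42170825 and 33194931 counts in JG80 to JG84, and 24844696, 30973146, 26712984, 29148084 and 27581484 counts in JG74 to JG78. The lowest count of any member in any library was 14115, where counting error is 0.842% of the value. Differences of a few percent between single values therefore lay outside counting error, and the spread between libraries set the precision.

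Most reads of every library came from these 100 genes, and their share was smaller in JG80-JG84. Their summed share was 63.8%, 63.0%, 64.7%, 62.7% and 63.0% of the counts in JG80 to JG84, against 65.1%, 67.9%, 67.3%, 66.6% and 66.6% in JG74 to JG78. The 95% Wilson intervals of these shares, which cover counting error only, reached at most 0.0187 points to either side. Every library of JG80-JG84 lay below every library of JG74-JG78. The share averaged 63.4% ± 0.810 in JG80-JG84 and 66.7% ± 1.05 in JG74-JG78 (SD, n = 5 each), a difference of -3.26 points. An exact two-sided permutation test gave p = 0.00794, the smallest that 5 libraries against 5 allow, and 0.0397 after Benjamini-Hochberg adjustment over the 5 single values tested in this way. With any 1 library left out the difference lay between -3.59 and -3.01 points. The adjusted p of the exact test then stayed at 0.0397 without JG82 or without JG74, and was 0.0529 to 0.0794 without any of the other 8, where 4 libraries against 5 allow no raw p under 0.0159. When lengths were taken into account by summing counts per kilobase and library total (RPKM) instead of counts, the difference was -1.95 points and the adjusted p of the exact test 0.132.

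**Figure D1:**
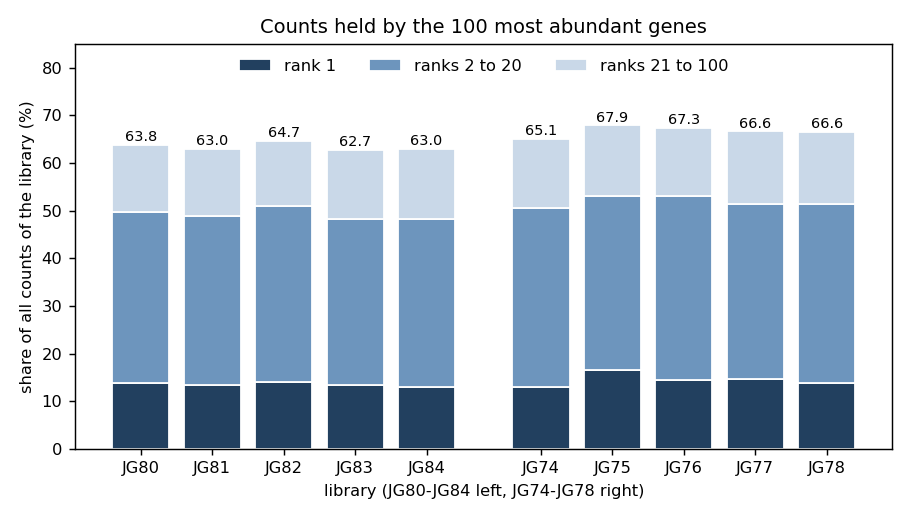
Share of each library's counts, in percent, held by the 100 most abundant genes, with the libraries JG80 to JG84 on the left and JG74 to JG78 on the right; the parts of each bar are the most abundant gene, ranks 2 to 20 and ranks 21 to 100. The 5 libraries JG80 to JG84 reach 62.7% to 64.7% and the 5 libraries JG74 to JG78 reach 65.1% to 67.9%.

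Most of that difference lay in the 20 most abundant genes, which also held most of the members' counts (51.9 of 66.7 points in JG74-JG78). Whether these 20 differed by more than in proportion to that share was not tested. They took 49.2% ± 1.16 of the counts in JG80-JG84 and 51.9% ± 1.12 in JG74-JG78 (SD, n = 5 each), a difference of -2.72 points with an adjusted p of 0.0397 in the exact permutation test, although the highest library of JG80-JG84 lay above the lowest of JG74-JG78. Leaving out any of the same 8 libraries ended this call too (adjusted p of 0.0529 to 0.0794 in the exact test), and by summed RPKM the difference was -1.33 points (exact test, adjusted p = 0.179). Members 21 to 100 took 14.2% ± 0.424 in JG80-JG84 and 14.8% ± 0.408 in JG74-JG78 (SD, n = 5 each), which missed the threshold (exact permutation test, adjusted p = 0.132). How evenly the counts were spread over the members, given as their Shannon entropy, was 4.97 ± 0.0414 bits in JG80-JG84 and 4.96 ± 0.0554 bits in JG74-JG78 (SD, n = 5 each; exact permutation test, adjusted p = 0.754).

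The single most abundant gene, Nfu_g_1_002091, took 13.9%, 13.4%, 14.1%, 13.4% and 12.9% of all counts in JG80 to JG84, against 12.9%, 16.5%, 14.5%, 14.6% and 13.8% in JG74 to JG78. The blocks overlapped, and the 2 lowest values stood one in each block. Its share averaged 13.5% ± 0.451 in JG80-JG84 and 14.5% ± 1.34 in JG74-JG78 (SD, n = 5 each), a difference of -0.94 points that missed the threshold (exact permutation test, adjusted p = 0.208). Without library JG75 the difference was -0.42 points.

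Counted in points of the library, 60 members had a lower mean share in JG80-JG84, with differences that sum to -4.57 points, and 40 had a higher one, with a sum of 1.31 points. The 5 members with the largest lower share made up -2.39 of these points. They were Nfu_g_1_002091 (-0.94 points), Nfu_g_1_022849 (-0.67), Nfu_g_1_003723 (-0.29), Nfu_g_1_019276 (-0.26) and Nfu_g_1_019261 (-0.23). The order of the first 2 rested on library JG75: without it the difference was -0.42 points for Nfu_g_1_002091 and -0.89 points for Nfu_g_1_022849. On the other side stood Nfu_g_1_014209 with 0.36 points and Nfu_g_1_023319 with 0.18 points. The differences of mean share thus ran both ways at the top of the ranking: ranks 4 and 10 had a larger one in JG80-JG84, and ranks 1, 3 and 5 a smaller one. In the gene-by-gene test below, ranks 4 and 10 were called under neither scaling of the libraries. Rank 3 was called lower under both, and ranks 1 and 5 with TMM alone.

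Gene by gene, the members leaned towards JG74-JG78, and how many passed the test depended on the scaling of the libraries. With TMM scaling, which sets the libraries so that most genes have no average difference, edgeR's quasi-likelihood test called 46 of the 100 members lower in JG80-JG84, 1 higher and 53 neither, at a Benjamini-Hochberg adjusted p under 0.05. Of all 16094 genes tested, 18.5% were called lower and 24.2% higher. These were not matched to the members in abundance: the median standard error with TMM was 0.117 for the members and 0.159 for all genes. A difference of the same size was thus more readily called among the members. With the library total as the scale, which is the scale of the shares above, 16 members were called lower, 8 higher and 76 neither, beside 9.69% and 36.9% of all genes. The change of scaling moved the median of all genes by 0.23 on the log2 scale. Relative to that median the members stood at the same place under both: their median log2 difference was -0.27 with TMM, where that of all genes was -0.01, and -0.04 with the library total, where that of all genes was 0.23. Under either scaling, 88 of the 100 members lay below the median of all genes. A change of scaling moves the log2 difference of every gene by nearly the same amount. That the 2 scalings gave the same place was therefore fixed in advance and is no second result. The number called higher with TMM was 2 without library JG80 and 3 without JG81 or JG75. These counts include members outside the top 100 of 1 block, which had to rank higher in the other block. Of these, Nfu_g_1_020380, Nfu_g_1_002289, Nfu_g_1_020454 and Nfu_g_1_013281 were called lower under both scalings. Nfu_g_1_012354 was called higher under both, and Nfu_g_1_013298 and Nfu_g_1_017784 with the library total alone. Their calls add nothing to the comparison with all genes.

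All 16 members called lower with the library total were among the 46 called with TMM, and Nfu_g_1_012354 was called higher under both. The 7 genes called higher with the library total alone were Nfu_g_1_022871, Nfu_g_1_008681, Nfu_g_1_010817, Nfu_g_1_018490, Nfu_g_1_023149, Nfu_g_1_013298 and Nfu_g_1_017784. A further 30 were called lower with TMM alone. Among these were Nfu_g_1_003723 at rank 5 and the most abundant gene, Nfu_g_1_002091 (log2 difference -0.33 with TMM), whose call was also lost without the filter on low counts (edgeR, adjusted p = 0.086).

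**Figure D2:**
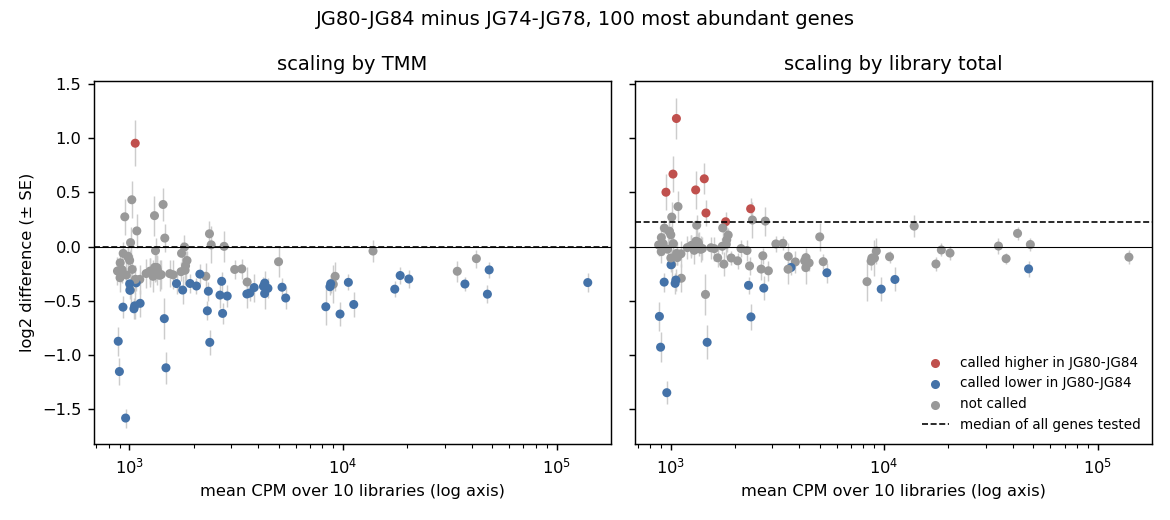
Log2 difference of each of the 100 genes, JG80-JG84 minus JG74-JG78, with its standard error, against mean CPM on a log axis, with TMM scaling on the left and library-total scaling on the right. Red points were called higher and blue points lower in JG80-JG84, grey points were not called, and the dashed line is the median of all genes tested, at -0.01 with TMM and 0.23 with the library total.

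With TMM, calls were densest at the top of the ranking and differences widest at its lower end. Of the 20 most abundant genes, 15 were called lower in JG80-JG84 with TMM and 4 with the library total, and none was called higher under either. Ranks 21 to 50 held 18 genes called lower with TMM (4 with the library total) and 0 called higher (2 with the library total). Ranks 51 to 100 held 13 called lower and 1 higher with TMM, and 8 lower and 6 higher with the library total. Differences beyond 2-fold with TMM occurred only in the last of these ranges, where all 10 members outside the top 100 of 1 block also lay.

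By length, the members' differences spread most widely among the longest transcripts, in part through members that entered by 1 block. The SD of the members' log2 differences was 0.12 over the 21 members under 1000 bases, 0.22 over the 42 from there to under 3000 bases, 0.33 over the 19 up to under 6000 bases and 0.54 over the 18 longer ones, all with TMM. Among all genes tested the same SD was 0.64, 0.68, 0.67 and 0.61 in these ranges of length. Over the 90 members within the top 100 of both blocks, a subset taken after the data were seen, the SD was 0.12, 0.22, 0.20 and 0.31 from the shortest to the longest range, with no steady rise. No test was made. The lengths are those implied by the deposited RPKM values.

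The member furthest apart was Nfu_g_1_020380, rank 90 and 9912 bases long. It stood at 526, 665, 506, 507 and 507 CPM in JG80 to JG84, against 1641, 1328, 1450, 1242 and 1228 CPM in JG74 to JG78. Its libraries formed 2 separate sets, with JG82, JG83 and JG84 close to 507 CPM, JG80 slightly above them and JG81 further up. The log2 difference was -1.58 ± 0.088 (SE; edgeR, TMM, adjusted p = 1.3e-06), and -1.35 ± 0.11 with the library total. Ranked within each block, the gene was number 177 in JG80-JG84 and number 60 in JG74-JG78, so it reached the 100 through the second block. In all, 4 of the 100 members lay outside the top 100 of JG80-JG84 and 6 others outside that of JG74-JG78. A gene that entered through 1 block had to rank higher there by CPM. The block differences of these 10 are therefore given as descriptions, and their p-values support nothing further. With TMM, Nfu_g_1_004741, Nfu_g_1_010272 and Nfu_g_1_013746, which entered through JG80-JG84, had log2 differences of -0.06, -0.15 and -0.22.

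Nfu_g_1_012354, rank 77 and 7493 bases long, went the other way. It stood at 2154, 1331, 1184, 1760 and 959 CPM in JG80 to JG84, against 568, 769, 604, 670 and 649 CPM in JG74 to JG78. Again no library of one block reached the other, but the values within JG80-JG84 spread over 2.25-fold, the widest of any member in that block. The log2 difference was 0.95 ± 0.21 (SE; edgeR, TMM, adjusted p = 0.0032), and 1.18 ± 0.19 with the library total. It ranked number 59 in JG80-JG84 and number 151 in JG74-JG78, and so entered the 100 through JG80-JG84. The ratio of Nfu_g_1_012354 to Nfu_g_1_020380, which no scaling of the libraries can alter and which was singled out after the values were seen, was 4.10, 2.002, 2.34, 3.47 and 1.89 in JG80 to JG84, against 0.346, 0.579, 0.416, 0.539 and 0.529 in JG74 to JG78. Which of the 2 was the more abundant by counts was opposite in the blocks. Nfu_g_1_020380 had entered through JG74-JG78 and Nfu_g_1_012354 through JG80-JG84. An opposite order of their block means was therefore fixed by how they entered, and the ratio is a description only.

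A further 4 members fell by more than 0.8 on the log2 scale with TMM and were also called lower with the library total. Nfu_g_1_020454 stood at 663, 641, 596, 587 and 609 CPM in JG80 to JG84, against 1687, 1063, 1082, 1077 and 973 CPM in JG74 to JG78, with a log2 difference of -1.15 ± 0.13 (SE; edgeR, adjusted p = 3.2e-05). Nfu_g_1_016181 stood at 917, 1197, 952, 1097 and 1054 CPM in JG80 to JG84, against 2512, 1291, 1833, 2223 and 1754 CPM in JG74 to JG78 (log2 difference -1.12 ± 0.15, SE). In both genes the first block was narrower than the second, and the blocks did not overlap. The range was 1.13-fold in JG80-JG84 and 1.73-fold in JG74-JG78 for Nfu_g_1_020454, and 1.3-fold and 1.95-fold for Nfu_g_1_016181. Nfu_g_1_000099 stood at 1955, 2102, 1693, 1703 and 1813 CPM in JG80 to JG84, against 3651, 2376, 2519, 3179 and 2792 CPM in JG74 to JG78, a log2 difference of -0.88 ± 0.12 (SE). For Nfu_g_1_013281, at rank 99, the values were 747, 677, 601, 694 and 742 CPM in JG80 to JG84, against 1336, 767, 1098, 1188 and 1015 CPM in JG74 to JG78 (log2 difference -0.87 ± 0.14, SE). Nfu_g_1_020454 ranked number 155 in JG80-JG84 and number 72 in JG74-JG78, and Nfu_g_1_013281 number 136 in JG80-JG84 and number 80 in JG74-JG78, so these 2 entered the 100 through JG74-JG78, while the other two were within the top 100 of both blocks. Library JG75 was the lowest of its block in Nfu_g_1_016181, Nfu_g_1_000099 and Nfu_g_1_013281, and came nearest to the other block there.

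The remaining members of the largest called differences were smaller in size. Nfu_g_1_019276, the second longest gene, averaged 8380 ± 1135 CPM in JG80-JG84 and 10993 ± 1437 CPM in JG74-JG78 (SD, n = 5 each), a log2 difference of -0.62 ± 0.11 (SE; edgeR, adjusted p = 0.0010). Nfu_g_1_007612 averaged 2372 ± 339 CPM in JG80-JG84 and 3090 ± 301 CPM in JG74-JG78 (SD, n = 5 each), with a log2 difference of -0.61 ± 0.10 (SE). Nfu_g_1_007479 averaged 1236 ± 278 CPM in JG80-JG84 and 1677 ± 388 CPM in JG74-JG78 (SD, n = 5 each), and its call with TMM (log2 difference -0.66, edgeR's adjusted p = 0.013) was lost with the library total (-0.44, adjusted p = 0.072).

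**Figure D3:**
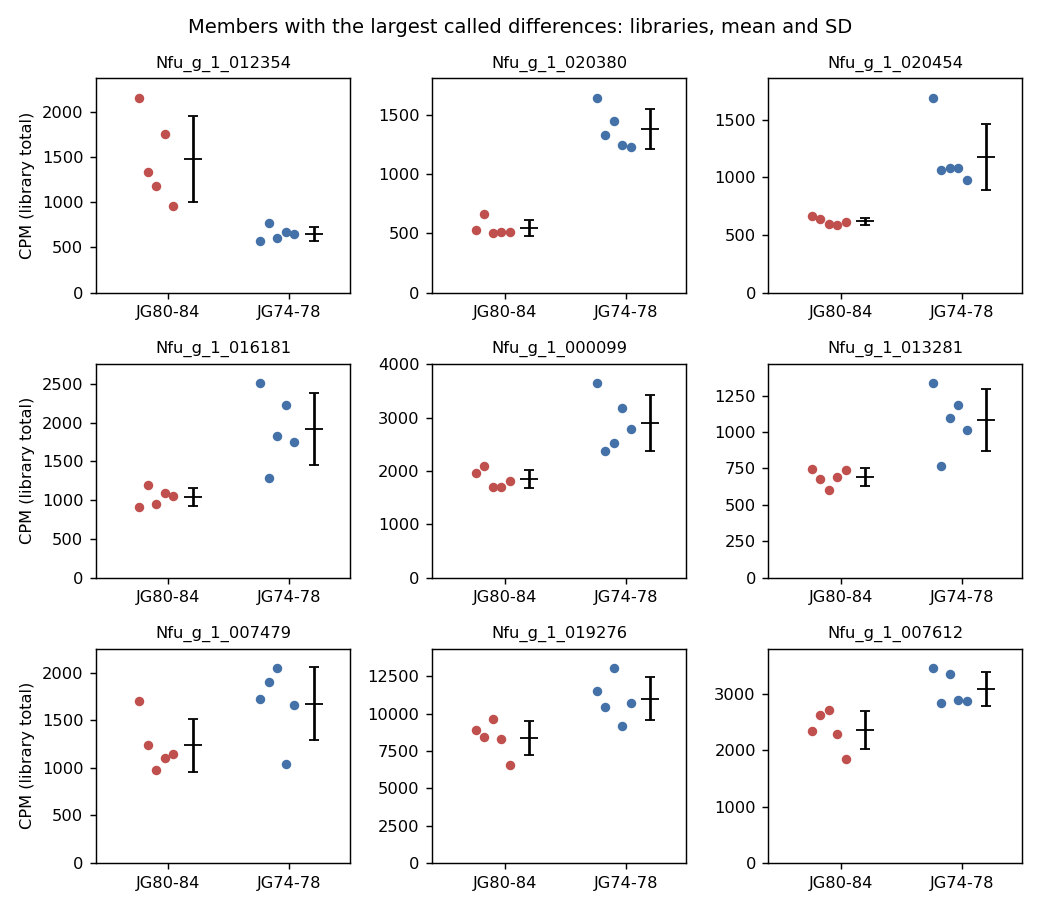
CPM by library total in each of the 10 libraries for the 9 members with the largest called differences, JG80-JG84 in red on the left and JG74-JG78 in blue on the right of each panel, with the mean and SD of 5 libraries in black. In Nfu_g_1_012354 the red points lie above all blue ones, in Nfu_g_1_020380 and Nfu_g_1_020454 below all of them, and in Nfu_g_1_007479 and Nfu_g_1_019276 the blocks overlap.

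By CPM, 11 of the 100 members had blocks that did not overlap. Of these, 9 were lower in JG80-JG84, where 5.8% of all genes tested were, and 2 were higher, Nfu_g_1_012354 and Nfu_g_1_022871, where 29.4% of all genes were. Among the 9, Nfu_g_1_020380, Nfu_g_1_002289, Nfu_g_1_020454 and Nfu_g_1_013281 had entered the 100 through JG74-JG78, and Nfu_g_1_012354 had entered through JG80-JG84. The rule that chose the members thus favoured such separation, and the 9 beside 5.8% are no measure of an excess. Nfu_g_1_022871 stood at 2397, 2261, 2525, 3384 and 2712 CPM in JG80 to JG84, against 1975, 2150, 2150, 2042 and 2109 CPM in JG74 to JG78. Its log2 difference was 0.12 ± 0.12 with TMM (SE; edgeR, adjusted p = 0.46) and 0.35 ± 0.10 with the library total (SE; adjusted p = 0.014), so its direction held and its call did not.

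Among the most abundant genes the differences were smaller. Nfu_g_1_007569, rank 2, stood at 49892, 49520, 51885, 45558 and 46611 CPM in JG80 to JG84, against 46722, 48743, 50955, 46099 and 47650 CPM in JG74 to JG78. The blocks overlapped almost entirely, and its log2 difference was -0.21 ± 0.071 with TMM (SE; edgeR, adjusted p = 0.029) and 0.02 ± 0.057 with the library total (SE; adjusted p = 0.82). Its call was also lost without the filter on low counts and without library JG81, JG83, JG84 or JG78. Nfu_g_1_022849, rank 3, was called lower under both scalings (log2 difference -0.44 ± 0.085 with TMM and -0.20 ± 0.076 with the library total, SE). Its values were 43373, 44710, 44473, 43838 and 44027 CPM in JG80 to JG84, against 57977, 42185, 49829, 53063 and 50988 CPM in JG74 to JG78. The first block was within 1.03-fold, the narrowest of any member in that block, and JG75 was below it while the 4 other libraries of its block were above. Nfu_g_1_014209, rank 4, averaged 43903 ± 2204 CPM in JG80-JG84 and 40348 ± 1702 CPM in JG74-JG78 (SD, n = 5 each) and was not called under either scaling, with a log2 difference of -0.11 with TMM and 0.12 with the library total.

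Set against length, the order of the members changed. By RPKM, recomputed with each library's own total, the first place went to Nfu_g_1_019445, a transcript of 342 bases at rank 6 by CPM, with 100267 ± 7191 RPKM (SD, n = 10 libraries). Nfu_g_1_002091, of 1813 bases, followed with 77212 ± 5863 RPKM and Nfu_g_1_023319, of 330 bases, with 41889 ± 5577 RPKM. The 2 longest members, Nfu_g_1_019261 of 88546 bases and Nfu_g_1_019276 of 67190 bases, stood at ranks 11 and 13 by CPM and at ranks 322 and 295 by RPKM. In all, 57 members were also among the 100 highest genes by RPKM. The members had a median length of 2497 bases, and the genes tested 2883 bases.

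The composition of the top of the ranking was largely stable. In all 10 libraries, 74 genes were among the 100 most abundant, and the union over libraries held 136. Each library of JG80-JG84 had 92 to 95 of the members in its own top 100, and each of JG74-JG78 had 87 to 94. At the edge of the rule, ranks 99 and 100, Nfu_g_1_013281 and Nfu_g_1_013746, averaged 886 and 879 CPM over the 10 libraries. The next 2 genes, Nfu_g_1_007519 and Nfu_g_1_013837, just outside it, averaged 863 CPM each.

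Over all 10 libraries the highest value of a member was 1.44 times its lowest in the median, between 1.14 times for Nfu_g_1_007569 and 3.79 times for Nfu_g_1_012354. It stayed under 1.5 times for 56 members and reached 2 times for 12. Within a block the median was 1.22 times in JG80-JG84 and 1.38 times in JG74-JG78. A range of 2 times or more occurred for 1 member in each, Nfu_g_1_012354 in JG80-JG84 and Nfu_g_1_013350 in JG74-JG78, where JG74 stood at 13890 CPM and the 4 other libraries at 6158 to 9064 CPM. After fitting the block means, the coefficient of variation beyond counting noise had a median of 0.133 over the members, between 0.0493 and 0.262, and of 0.141 over all genes tested. The steadiest members were Nfu_g_1_003723, Nfu_g_1_023306, Nfu_g_1_011101 and Nfu_g_1_007569, and the least steady Nfu_g_1_012354, Nfu_g_1_007479, Nfu_g_1_023149 and Nfu_g_1_019706.

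How members moved relative to each other within a block was measured for every pair of the 100. The measure, proportionality, is 1 minus the variance of the log2 ratio of the 2 genes divided by the sum of their own variances. It is 1 where the ratio is constant, 0 where the genes move independently and below 0 where one is high when the other is low. The variance of a ratio does not depend on the scaling of the libraries, but the variances of the single genes do. With 5 libraries per block, single values are loose, and pairs are given as descriptions with no test.

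Many members kept a nearly constant ratio to another member. A proportionality of at least 0.9 in both blocks was found for 178 of their pairs (3.60%), against 0.0239% of all 129500371 pairs of tested genes. Counting noise lowers the measure for genes of low counts. Among the 618 genes outside the members that averaged 100 CPM or more it was 0.613%, a comparison chosen after the data were seen. Scaled by the library total the number was 103, and all 103 were among the 178. Of the 178 pairs with TMM, 168 lay within a single set of 25 members, described below.

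With TMM, the share of opposed pairs was no higher than among genes at large. Whether opposed or together pairs were more numerous depended on the setting, and their cut-offs are not alike. In both blocks it was 49 opposed and 178 together with TMM, but 159 and 103 with the library total. Within JG74-JG78 alone it was 419 opposed and 312 together with TMM. A proportionality of -0.5 or less in both blocks was found for 49 pairs (0.990%), against 1.77% of all pairs and 1.15% of the pairs of the 618 other abundant genes. Within JG80-JG84 alone it was 278 pairs (5.62%, against 11.0% of all pairs) and within JG74-JG78 alone 419 pairs (8.46%, against 12.0%). The list of opposed pairs depended on the scaling. The number in both blocks was 159 with the library total, of which 21 were among the 49, and 31 with DESeq2's size factors, of which 28 were. Shares over all pairs of genes were taken with TMM only. Whether the 159 exceed the share among genes at large on their own scale is therefore not known. It was 85 without library JG80 and 91 without JG81.

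**Figure D4:**
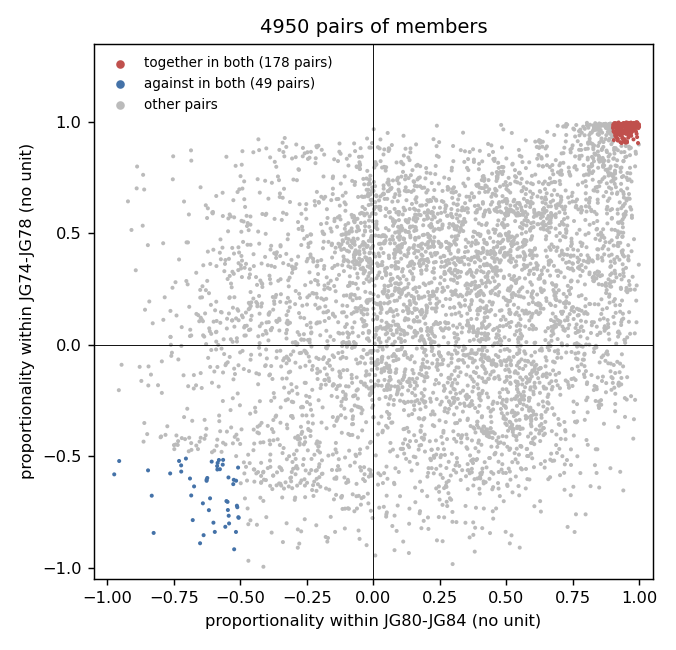
Proportionality of each pair of the 100 genes within JG80-JG84 and within JG74-JG78, with TMM scaling; 1 stands for a constant ratio and values below 0 for opposed movement. The 178 pairs at 0.9 or more in both blocks lie in the upper right corner and the 49 pairs at -0.5 or less in both in the lower left.

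Of the 5 most opposed pairs, 2 met the criterion under TMM, the library total and DESeq2's size factors alike. The first was that of Nfu_g_1_019706 and Nfu_g_1_007479. Its proportionality was -0.68 in JG80-JG84 and -0.79 in JG74-JG78 with TMM, and -0.79 and -0.78 with the library total. The ratio of the first gene to the second was 3.86, 6.78, 10.9, 9.64 and 6.13 in JG80 to JG84, and 4.88, 5.28, 3.61, 11.7 and 5.21 in JG74 to JG78. It varied 2.83-fold within JG80-JG84 and 3.23-fold within JG74-JG78, with library JG77 at the top of its block and JG80 at the bottom of its own.

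Nfu_g_1_019276, the second longest gene, and Nfu_g_1_004305 were the second of these pairs, at -0.68 in JG80-JG84 and -0.68 in JG74-JG78 with TMM and at -0.60 and -0.63 with the library total. Their ratio ran between 6.25 in JG84 and 10.7 in JG82, and between 8.19 in JG77 and 14.1 in JG76. Nfu_g_1_015319 and Nfu_g_1_021835 were opposed most strongly with TMM, at -0.83 in JG80-JG84 and -0.84 in JG74-JG78. Scaled by the library total they stood at -0.22 and -0.65, and so no longer met the criterion in JG80-JG84. The other two pairs both held Nfu_g_1_020380. Its partner Nfu_g_1_013726 stood at -0.83 in JG80-JG84 and -0.68 in JG74-JG78 with TMM, and at -0.18 and -0.32 with the library total. With Nfu_g_1_008148 the values were -0.65 and -0.89 with TMM, and 0.03 and -0.37 with the library total.

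Nfu_g_1_020380, the gene with the largest block difference, took part in 19 of the 49 opposed pairs, and the next gene, Nfu_g_1_015319, in 5. Its log2 deviation from the block mean with TMM was 0.03, 0.19, -0.09, -0.06 and -0.07 in JG80 to JG84, and 0.18, -0.05, 0.05, -0.09 and -0.09 in JG74 to JG78. It was highest in JG81 and in JG74, the libraries with the largest TMM factor of their block (1.17 and 0.975). The part of the TMM factor in these pairs was not tested beyond the change of scaling given above.

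The genes at ranks 1 and 3, Nfu_g_1_002091 and Nfu_g_1_022849, singled out after their values were seen, had a proportionality of 0.75 in JG80-JG84 and -0.64 in JG74-JG78 with TMM. Scaled by the library total they stood at -0.05 in JG80-JG84 and -0.91 in JG74-JG78. In JG74-JG78, JG75 had the highest value of Nfu_g_1_002091 and the lowest of Nfu_g_1_022849, while JG74 had the lowest of Nfu_g_1_002091 and the highest of Nfu_g_1_022849.

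Among the pairs that moved together, ratios hardly varied. Nfu_g_1_003964 over Nfu_g_1_010811 was 1.09, 1.09, 1.06, 1.097 and 1.09 in JG80 to JG84, and 1.03, 1.047, 1.07, 1.045 and 1.04 in JG74 to JG78. Each of the 2 genes by itself ranged 1.23- to 1.26-fold in JG80-JG84 and 1.39- to 1.43-fold in JG74-JG78. Nfu_g_1_013019 over Nfu_g_1_015364 stayed within 1.04-fold in JG80-JG84 and 1.03-fold in JG74-JG78, and the pairs of Nfu_g_1_000974 with Nfu_g_1_000119 and of Nfu_g_1_013894 with Nfu_g_1_013746 stayed within 1.03-fold in JG80-JG84 and 1.07-fold in JG74-JG78. Nfu_g_1_023149 and Nfu_g_1_013298 moved together within each block, and their ratio was lower in JG80-JG84. It was 1.23, 1.20, 1.23, 1.24 and 1.23 in JG80 to JG84, against 1.32, 1.41, 1.28, 1.37 and 1.36 in JG74 to JG78. No library of one block reached the other. Nfu_g_1_013298, the lower part of this ratio, ranked number 68 in JG80-JG84 and number 119 in JG74-JG78. It thus became a member through JG80-JG84, which favours a lower ratio there. How many other pairs had ratios separated by block was not counted, so this separation is a description only.

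Joining members through their together pairs gave 7 linked groups that held 40 of the 100 members. The groups were formed after the values were seen and are descriptions. The largest held 25 members, all between ranks 26 and 100, with lengths of 486 to 4565 bases and a median of 1389 bases, and 168 of its 300 pairs met the criterion. By library total the largest group held 22 members, all of them among the 25. The summed share of the 25 was 3.67%, 3.52%, 3.26%, 3.68% and 3.92% in JG80 to JG84, and 3.26%, 3.91%, 3.02%, 4.33% and 4.05% in JG74 to JG78. The blocks overlapped, at 3.61% ± 0.242 in JG80-JG84 and 3.71% ± 0.553 in JG74-JG78 (SD, n = 5 each), and most of the variation lay among the libraries of JG74-JG78, where JG74 and JG76 were low and JG77 and JG78 high. With TMM 4 of the 25 were called lower in JG80-JG84 and 0 higher, beside 18.5% and 24.2% of all genes tested. By library total 1 was called lower and 0 higher, beside 9.69% and 36.9% of all genes.

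A group of 2 held the longest members, Nfu_g_1_019261 and Nfu_g_1_019276. Together they took 1.92%, 1.82%, 2.18%, 1.83% and 1.47% of the counts in JG80 to JG84, against 2.42%, 2.20%, 2.76%, 1.98% and 2.33% in JG74 to JG78. The share averaged 1.84% ± 0.255 in JG80-JG84 and 2.34% ± 0.289 in JG74-JG78 (SD, n = 5 each), and both genes were called lower in JG80-JG84 under both scalings. Library JG82 of the first block lay above JG77 of the second.

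The group of 25 and the 2 longest genes were opposed on balance in both blocks, though not in every library. All 50 pairs between them had a proportionality below 0 in JG80-JG84 and in JG74-JG78, under TMM, the library total and DESeq2's size factors alike, and 3 of the 50 reached -0.5 in both blocks with TMM. The medians were -0.33 in JG80-JG84 and -0.53 in JG74-JG78. Since 25 and 2 genes that each move as one are set against each other, the 50 pairs repeat nearly 1 comparison. That comparison is the ratio of the summed counts of the 25 to those of the 2, which is free of scaling. It was 1.91, 1.93, 1.496, 2.01 and 2.67 in JG80 to JG84, and 1.345, 1.77, 1.09, 2.19 and 1.73 in JG74 to JG78. It varied 1.78-fold within JG80-JG84 and 2.01-fold within JG74-JG78, with JG82 and JG76 lowest and JG84 and JG77 highest, and the blocks overlapped. With TMM the group of 25 and the 2 longest stood on opposite sides of their block mean in 5 of the 10 libraries and on the same side in the other 5. These sides depended on the scaling. By summed share of the library total, JG74, JG78 and JG83 stood on opposite sides as well, JG78 and JG83 narrowly. JG80 and JG81 stayed on the same side.

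**Figure D5:**
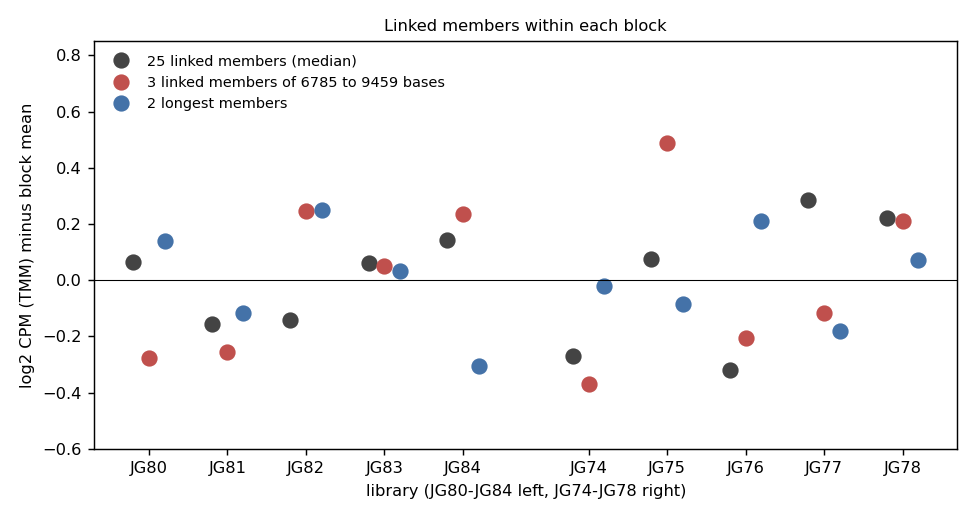
Log2 CPM with TMM scaling minus the mean of the library's own block, for the 10 libraries with JG80 to JG84 on the left and JG74 to JG78 on the right; grey points are the median of the 25 linked members, red points that of the 3 linked members of 6785 to 9459 bases, and blue points that of the 2 longest members. In JG84 and JG77 the 25 stand above their block mean and the 2 longest below, in JG82 and JG76 it is the other way round, and in JG80, JG81, JG83, JG74 and JG78 both stand on the same side.

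Another group joined Nfu_g_1_018490, Nfu_g_1_023149 and Nfu_g_1_013298, of 9459, 6785 and 9137 bases. Their summed share was 0.362%, 0.408%, 0.529%, 0.458% and 0.518% in JG80 to JG84, against 0.240%, 0.418%, 0.258%, 0.263% and 0.320% in JG74 to JG78. Library JG75 stood apart from the other 4 of its block and reached into the range of JG80-JG84. Nfu_g_1_013298, at number 68 in JG80-JG84 and number 119 in JG74-JG78, entered the 100 through JG80-JG84. The summed share averaged 0.455% ± 0.0711 in JG80-JG84 and 0.300% ± 0.0723 in JG74-JG78 (SD, n = 5 each). None of the 3 was called with TMM (log2 differences 0.29 to 0.43). All 3 were called higher in JG80-JG84 with the library total, as were 36.9% of all genes tested. Directions differed among long transcripts within the top 100 of both blocks. Nfu_g_1_018490 and Nfu_g_1_023149 had a higher mean in JG80-JG84, and the 2 longest were called lower there. Nfu_g_1_013298, Nfu_g_1_012354 and Nfu_g_1_020380 entered through the block where they were higher, so their directions add nothing to this.

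The remaining linked groups held 2 or 3 members each: Nfu_g_1_008148 with Nfu_g_1_015532 and Nfu_g_1_015546, Nfu_g_1_008681 with Nfu_g_1_009250 and Nfu_g_1_013879, Nfu_g_1_023427 with Nfu_g_1_001128, and Nfu_g_1_013726 with Nfu_g_1_020391. The last of these had the steadiest summed share in JG80-JG84, at 0.378% ± 0.0075, beside 0.378% ± 0.0270 in JG74-JG78 (SD, n = 5 each). Of the 100 members, 48 took part in at least 1 opposed pair and 30 in no pair of either kind.

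A single direction held a large part of the movement within a block, where 5 libraries allow at most 4 directions. The first principal component of the members' log2 values with TMM, centred per gene within the block, held 47.6% of the variance in JG80-JG84 and 51.7% in JG74-JG78. By library total it held 42.0% in JG80-JG84 and 46.2% in JG74-JG78. Sides, given by the sign of a gene's weight on this component, were taken with TMM only. In JG80-JG84, 83 members lay on the side of the most abundant gene and 17 on the opposite side. In JG74-JG78 it was 75 and 25. In both blocks 65 members lay on the side of the most abundant gene and 7 on the opposite side. The sides of 28 differed between the blocks. With most members on 1 side in each block, a large number on that side in both follows in part from these counts. Whether the blocks shared sides beyond that was not tested, and sides were not taken for all genes. The 7 were Nfu_g_1_007612, Nfu_g_1_019276, Nfu_g_1_019261, Nfu_g_1_020380, Nfu_g_1_015269, Nfu_g_1_009050 and Nfu_g_1_023319, named after their values were seen. Some weights were near 0, with 0.024 for the most abundant gene and -0.014 for Nfu_g_1_023319 in JG80-JG84. Library scores were lowest in JG81 (-1.40), JG74 (-1.76) and JG76 (-1.84), whose TMM factors (1.17, 0.975 and 0.945) were the largest of their blocks. The order was not strict: JG84, with a factor of 1.07, scored above JG80, with 1.04. The part of the TMM factor in these sides was not tested. Between the blocks, the difference of the block means held 43.2% of a member's variance in the median with TMM, beside 38.2% for all genes. By library total it was 21.7%, beside 41.7% for all genes.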

How the data were processed

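Library preparation from total RNA used the second version of Illumina's TruSeq RNA kit, per the labels. Tools in the submitters' processing notes are featureCounts 1.4.6-p4, STAR 2.4.1d and bcl2fastq 1.8.4. Genome build, annotation, strand setting and the handling of reads shared by near-identical or overlapping genes were not given in the sources used here, so the counts of such neighbours cannot be told apart.

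The authors deposited whole-number counts per gene, used here as deposited, with 0 columns left unused. RPKM values, a second table the authors deposited, covered these genes too. With each library's own total, the gene length implied by count and RPKM varied between libraries by 23.7% in the median member (coefficient of variation). With the totals running on down the rows it varied by at most 0.000377%. Lengths were therefore taken on the second basis and RPKM was recomputed with each library's own total.

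The members, the blocks and the rules below were chosen with earlier results of these data known. Blocks were taken from the numbers in the titles. Differences, JG80-JG84 minus JG74-JG78, were tested with edgeR 4.0.16 (glmQLFit and glmQLFTest, filterByExpr by block, TMM, Benjamini-Hochberg at 0.05) on all 16094 genes kept, which included all 100 members. The standard error is the log2 difference divided by the square root of F. The procedure was tested on simulated data. Single values per library had exact two-sided permutation tests over the 252 arrangements. Proportionality used log2 of the count plus 0.5 over the scaled library size. The genes named are the 10 most abundant, the called ones with the largest differences (up to 8 in each direction), the 5 pairs at each end of proportionality, the 4 steadiest and 4 least steady, those at the edge of rank 100 and the longest and shortest. Others were named after their values were seen. Alternatives were the library total, DESeq2 1.42.0 size factors and test, no filter, other member sets, length-scaled shares, other thresholds and pseudocounts, and leaving out each library. R 4.3.3, Python 3.11.15, numpy 2.4.6, scipy 1.17.1 and pandas 2.3.3 were used.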

Additional observations from a re-analysis of the deposited data

Results flagged for a closer look

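Within each block of 5 libraries, the highest or lowest library was compared with its nearest neighbour for the members named by rule. In 5 of 98 such checks the gap was above 0.710 of the block's whole range, Dixon's 95% critical value for 5, and chance alone gives about 5% of checks. Nfu_g_1_005665, rank 7, stood apart on both sides: library JG81 had 21574.9 CPM, the highest of JG80-JG84, and library JG74 had 18040.0 CPM, the lowest of JG74-JG78. Nfu_g_1_023319, rank 10, was highest in JG82 with 17392.3 CPM. The largest gap, 0.877 of the range, was that of Nfu_g_1_020380 in JG81, which had 664.709 CPM and still lay below every library of JG74-JG78. Nfu_g_1_020454 was highest in JG74 with 1687.28 CPM, on the side away from JG80-JG84.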

How the results depend on the processing

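By library total 8 members were called higher and 16 lower, and the median log2 difference was -0.038. Other member sets gave 0 called higher (the top 50, the top 100 of JG74-JG78 and the top 100 by RPKM) or 3 higher and 73 lower (the top 200). By summed RPKM the share differed by -1.95 points for the 100 members (adjusted p = 0.132, exact test) and by -1.33 points for the top 20 (adjusted p = 0.179, exact test), and the entropy by -0.0398 bits. Without the most abundant member the entropy differed by -0.0054 bits. Opposed pairs numbered 159 by library total, 31 with DESeq2 size factors and 596 at a threshold of 0. Together pairs numbered 103 by library total and 328 at a threshold of 0.8.

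With 1 library left out, 1 to 3 members were called higher (3 without JG81 or JG75) and 41 to 69 lower. The share of the most abundant gene differed by -1.32 to -0.42 points (-0.42 without JG75). The median lay between -0.393 and -0.234, the share of the 100 between -3.59 and -3.01 points, that of the top 20 between -3.17 and -2.41 points and the entropy between -0.0145 and 0.0244 bits. Opposed pairs numbered 48 to 91 (85 without JG80, 91 without JG81). Together pairs numbered 134 (without JG77) to 217 (without JG80).

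Of single named genes, 10 changed sign, all by library total: Nfu_g_1_007569 (0.020), Nfu_g_1_014209 (0.122), Nfu_g_1_019445 (0.006), Nfu_g_1_023319 (0.189), Nfu_g_1_021835 (0.141), Nfu_g_1_003964 (0.028), Nfu_g_1_000119 (0.050), Nfu_g_1_015364 (0.027), Nfu_g_1_013894 (0.002) and Nfu_g_1_013746 (0.016), as log2 differences. With TMM these 10 lay between -0.24 (Nfu_g_1_013894) and -0.04 (Nfu_g_1_023319), and the change of scaling moved the median of all genes by 0.23. Why the 2 scalings differ was not tested. No paired analysis was possible because the blocks share no replicate numbers. Pairs under other scalings, the abundant background genes, the members in both top 100 lists and single-gene shares without a library were added after the data were seen.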
